A study of Mus musculus with 12 samples.

Results

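The surface receptors and signalling genes that mark marginal zone and follicular B cells were compared between WT, Eμ-Myc and Eμ-Myc PRPS2 KO mice. They are Cr2, Cd1d1, Cd9, Notch2, Dtx1, Fcer2a, Ms4a1, Cd38 and Fcrl1, 9 of 24982 listed gene symbols. They were chosen by name from knowledge of splenic B cells, with earlier results of these data known. All 9 passed the filter on low values in each comparison. Polyadenylated RNA came from splenic B lymphocytes of mice aged 6 weeks, with 4 libraries in each of 3 groups. The WT mice were labelled C57BL/J6, the Eμ-Myc mice carried a Myc transgene driven by the immunoglobulin heavy-chain enhancer, and the remaining mice carried the same transgene and lacked PRPS2. There was no group that lacked PRPS2 without the transgene, so the knockout group (the Eμ-Myc PRPS2 KO mice) is compared first with Eμ-Myc. The labels call the libraries biological replicates without naming animals, so the tests measure the spread between these libraries.

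Mature B cells of the spleen fall mainly into follicular cells, which recirculate through the lymphoid follicles, and marginal zone cells, which stay at the border of the white pulp and answer blood-borne antigen. Follicular cells carry much CD23, the low-affinity IgE receptor that Fcer2a encodes, while marginal zone cells carry much CD21 (Cr2) and CD1d (Cd1d1) and little CD23. The marginal zone fate needs signalling through the receptor Notch2: its cleaved intracellular part binds the DNA-binding protein RBPJ, and Dtx1 is a target of that signal in B cells. Cells that have just arrived from the bone marrow, called transitional cells, gain CD21 and CD23 as they mature.

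Cr2 and Fcer2a had the widest range of values on a log scale among these genes, and the bases before their annotated starts are shown for that reason. They come from RefSeq on GRCm38.p6 (mm10), cover 250 bases before each start and are written 5′ to 3′ on the strand of the gene, which is the minus strand for both. Capitals mark the core of the RBPJ motif, TGGGAA, searched on both strands, so that TTCCCA is the same motif on the other strand. The Cr2 window lies at chr1:195176720-195176969, just before the gene. Of the Fcer2a windows, that of start 1 lies at chr8:3694175-3694424, before the gene except for 1 exonic base, and those of starts 2 and 3 lie at chr8:3690862-3691111 and chr8:3690391-3690640, before alternative starts within an intron of the gene.
Cr2: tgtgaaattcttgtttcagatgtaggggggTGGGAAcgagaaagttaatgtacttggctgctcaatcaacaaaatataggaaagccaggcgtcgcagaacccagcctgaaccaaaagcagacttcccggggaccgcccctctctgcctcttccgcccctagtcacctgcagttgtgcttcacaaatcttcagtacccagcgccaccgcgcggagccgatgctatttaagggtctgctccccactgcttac
Fcer2a, start 1: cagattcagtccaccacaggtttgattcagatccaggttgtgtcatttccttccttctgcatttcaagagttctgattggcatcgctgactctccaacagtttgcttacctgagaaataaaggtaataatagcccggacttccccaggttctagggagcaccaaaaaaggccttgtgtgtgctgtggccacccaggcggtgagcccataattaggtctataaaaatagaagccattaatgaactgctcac
Fcer2a, start 2: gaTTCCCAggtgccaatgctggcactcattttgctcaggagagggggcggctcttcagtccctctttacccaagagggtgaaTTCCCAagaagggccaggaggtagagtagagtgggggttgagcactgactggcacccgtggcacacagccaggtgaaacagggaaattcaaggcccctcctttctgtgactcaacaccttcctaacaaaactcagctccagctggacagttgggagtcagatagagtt
Fcer2a, start 3: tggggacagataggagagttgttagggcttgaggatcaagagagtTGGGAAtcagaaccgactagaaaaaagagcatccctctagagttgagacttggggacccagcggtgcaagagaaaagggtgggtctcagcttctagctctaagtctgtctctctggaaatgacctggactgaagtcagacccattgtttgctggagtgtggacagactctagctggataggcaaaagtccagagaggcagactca
The Cr2 window held 1 match, at positions -220 to -215 from the start. The window of Fcer2a start 1 held none, that of start 2 held 2 matches on the opposite strand, at -248 to -243 and -168 to -163, and that of start 3 held 1, at -205 to -200. Over windows of 300 bases, which add 50 bases after the start, 25.6% of all 32851 windows in the table held TGGGAA on either strand. The table has 7 of the 9 genes, with 9 windows, of which 5 held the motif; these belong to Cr2, Fcer2a, Cd9 and Cd38. The E-box CACGTG, a palindrome and the best-known binding motif of Myc, was in 7.15% of all windows and in none of those 9. The CCAAT box, searched on both strands, was in 37.4% of all windows and in 3 of the 9, from Dtx1 and Fcer2a; the letters TGG belong to TGGGAA and to the reverse form of CCAAT, so matches can overlap. These matches describe letters in a window and do not show binding.

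The check of the labels held for both altered genes. Scaled coverage, the deposited mean coverage of a gene divided by a factor for its library, averaged 129 in WT, 246 in Eμ-Myc and 16.9 in knockout libraries for Prps2, and 279, 1912 and 2220.2 for Myc. Genes that define B cells were abundant in all 12 libraries, and the sum of 11 such B-lineage genes ran from 8331 to 15783. The libraries did not form tight groups, however. The summed level of 12 T-cell genes was 1302, 643, 866 and 4034 in WT libraries 1 to 4, between 131 and 192 in Eμ-Myc, and 809, 933, 20.9 and 18.0 in knockout libraries 1 to 4. The sum of 8 NK-cell genes split the knockout libraries in the same way, with 640.0, 485, 25.5 and 22.9, and that of 15 myeloid and dendritic genes was 16963, 12413, 3092 and 1452. WT libraries 1 and 4 had the highest T, NK and myeloid sums among WT and the lowest sums of 11 B-lineage genes, 8805 and 8331 against 15783 and 13281. In knockout libraries 3 and 4, 1 of the 12 T-cell genes was at 0, and Cd3e was at 0.53 and 0.636. What part these differences between libraries have in the results was not tested. The labels do not describe how B cells were isolated.

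In Eμ-Myc B cells the genes of both mature fates were lower than in WT. Of the 9 genes, 8 passed the test and all 8 fell, by 1.34-fold to 6.16-fold, while 55.7% of the 12723 genes tested were called in either direction and 26.7% were called lower. The median log2 fold change was -1.17 over the 9 genes and -0.05 over all genes tested. For 7 of the 9, every Eμ-Myc library lay below every WT library, as it did for 24.8% of all genes. The largest changes were in Fcer2a, Cr2 and Dtx1. RNA of mixed cells was measured, so fewer cells of a type and less RNA per cell cannot be told apart.

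Fcer2a, the marker that is highest on follicular cells, had a scaled coverage of 1785, 3268, 3036 and 1868 in WT libraries 1 to 4. In Eμ-Myc libraries 1 to 4 it was 645, 411, 279 and 309, so that all Eμ-Myc libraries were below the lowest WT library. The log2 fold change was -2.62 (SE 0.30, limma adjusted p 1.17e-04), a 6.16-fold lower level. Cr2, which encodes CD21 and CD35, receptors for complement fragments that lower the threshold of the B-cell receptor, had 115, 175, 189 and 82.5 in WT. Its Eμ-Myc values were 43.1, 20.1, 15.6 and 20.4. Eμ-Myc library 1 was the highest of its group for both genes, and still below all WT libraries. Cr2 fell by 2.51 on the log2 scale (SE 0.35, limma adjusted p 3.94e-04). Thus Fcer2a and Cr2 fell by similar amounts, 6.16-fold and 5.69-fold. The other marginal zone genes of the 9 fell less: Dtx1 by 3.94-fold, Cd9 by 2.46-fold, Notch2 by 1.81-fold and Cd1d1 by 1.34-fold. Cr2 therefore does not stand for the marginal zone genes as a set. The differences between these folds were not tested.

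Dtx1 encodes an E3 ubiquitin ligase of the Deltex family that is induced by Notch signals. Its WT values were 108, 137, 124 and 136, and its Eμ-Myc values were 43.7, 35.0, 23.2 and 27.8. As a ratio of highest to lowest library (1.27), its WT range was the narrowest of the 9 genes. The groups stood far apart, and the log2 fold change was -1.98 (SE 0.19, limma adjusted p 3.47e-05). Notch2, the receptor itself, had 61.1, 63.5, 79.9 and 41.4 in WT and 43.2, 23.6, 34.0 and 34.0 in Eμ-Myc. Here the groups overlapped, since Eμ-Myc library 1 was above WT library 4. The fall of Notch2 was smaller than that of Dtx1, at 0.85 on the log2 scale (SE 0.23, limma adjusted p 0.0108), though the difference between the genes was not tested. The ratio of Dtx1 to Notch2 within a library, which does not depend on scaling between libraries, ran from 1.55 to 3.28 in WT and from 0.684 to 1.49 in Eμ-Myc, without overlap.

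Cd1d1 encodes a molecule that presents lipid antigens to NKT cells. It had 55.6, 72.8, 64.9 and 58.2 in WT and 52.5, 51.5, 42.5 and 40.5 in Eμ-Myc, so the groups lay next to each other without overlap. The fall by 0.43 (SE 0.13, limma adjusted p 0.0190) was the smallest of those that passed, and the call was lost with scaling to B-lineage genes (adjusted p 0.304) and without WT library 2 (adjusted p 0.0543), Eμ-Myc library 3 (0.0585) or Eμ-Myc library 4 (0.0597). Of the 50-base windows of Cd1d1 transcripts, 19.1% occur also in Cd1d2, its near copy, so reads may have been shared between them; Cd1d2 itself was low, between 0.318 and 3.60 over all libraries. Cd9, a tetraspanin of marginal zone, B1 and plasma cells, was 281, 189, 187 and 137 in WT and 99.9, 105, 67.9 and 51.6 in Eμ-Myc. Every Eμ-Myc library was lower, and the difference was -1.30 on the log2 scale (SE 0.27, limma adjusted p 0.00336). Myeloid cells and platelets also express Cd9. WT library 1, the highest for Cd9, had the highest myeloid sum of the WT libraries, but library 4, the lowest for Cd9, had the next highest. The platelet sums were 330, 491, 465 and 110.2 in WT libraries 1 to 4. The part of these cells in the level of Cd9 was not tested.

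The remaining genes are found on mature B cells of both kinds. Fcrl1, an Fc receptor-like protein that enhances B-cell receptor signals, had 454, 746, 695 and 396 in WT and 283, 285, 205 and 222 in Eμ-Myc. It fell by 1.17 on the log2 scale (SE 0.22, limma adjusted p 0.00184), with no overlap between groups. Cd38, an ectoenzyme that breaks down NAD, was 101, 169, 159.6 and 92.7 in WT and 73.8, 64.8, 52.7 and 46.7 in Eμ-Myc. Again no library overlapped, and the log2 fold change was -1.10 (SE 0.23, limma adjusted p 0.00311). Ms4a1, which encodes the pan-B-cell antigen CD20, was 485, 1035, 873 and 449 in WT and 529, 461, 546 and 635 in Eμ-Myc. The Eμ-Myc libraries lay within the WT range, and the difference of -0.30 (SE 0.27, 95% interval -0.91 to 0.30, limma adjusted p 0.353) did not pass. It passed with library quality weights (-0.56, adjusted p 0.0268) and without WT libraries 1 and 4, a setting added after the data were seen (-0.82, 0.00334); in both the number of called genes became 9 of 9. Set against Ms4a1 in the same library, Fcer2a was 3.16 to 4.16 times as high in WT and 0.487 to 1.22 times as high in Eμ-Myc.

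**Figure D1:**
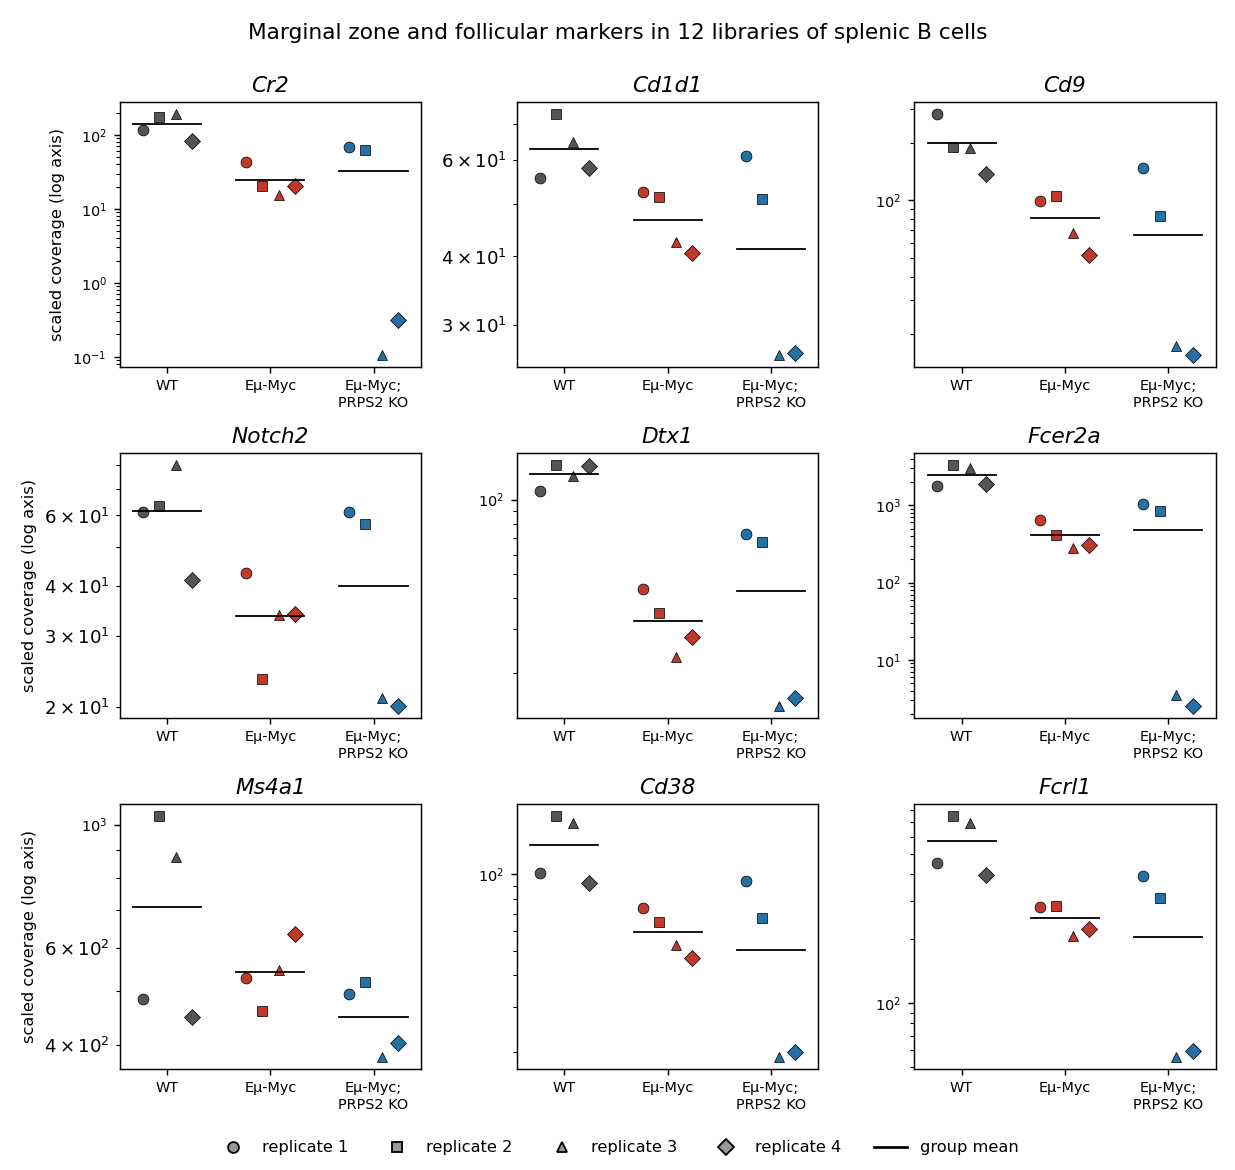
Scaled coverage of the 9 genes in each of 12 libraries, on log axes that differ between panels. Points are libraries, shaped by replicate number and coloured by group, and lines are group means. Eμ-Myc libraries lie below all WT libraries for 7 genes, and knockout libraries 3 and 4 lie below all Eμ-Myc libraries for all 9.

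A model of all 12 libraries at once, which takes the spread of the knockout libraries into its error, kept only Dtx1 past the threshold in this comparison, with adjusted p of 0.157 for Cr2 and 0.218 for Fcer2a. The fold changes themselves were the same in that model.

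Other genes of the mature fates were read beside these, from lists chosen by textbook knowledge with earlier results of these data known. Of 9 further follicular genes all 9 fell, with a median log2 fold change of -1.20. Ccr7, the chemokine receptor that leads lymphocytes to the T zone, fell by 1.28 (limma adjusted p 5.95e-05), and Icosl, a ligand that B cells show to helper T cells, by 2.26 (6.47e-05). Of 10 further marginal zone genes 6 fell and 1 rose. Beside these counts, 26.7% of all genes tested were called lower, 29.0% higher and 55.7% in either direction. S1pr1, a sphingosine phosphate receptor that holds cells in the marginal zone and lets lymphocytes leave organs, fell by 1.36 (limma adjusted p 3.27e-04), and Mzb1, a chaperone for immunoglobulin in the endoplasmic reticulum, rose by 1.26 (0.00199).

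Of 29 tested genes of the Notch pathway other than Notch2 and Dtx1, 13 fell and 1 rose, with a median of -0.30. That is 14 called of 29, a smaller share than the 55.7% of all genes called in either direction. The 13 called lower were a larger share than the 26.7% of all genes called lower. Whether the list differs from other genes was not tested. Maml2, a co-activator that joins the RBPJ complex, fell by 1.70 (limma adjusted p 1.65e-04), and Lfng, a glycosyltransferase that tunes the receptor for its ligands, fell by 1.22 (1.84e-04). Of 2 common targets of the pathway, Nrarp fell by 0.80 (limma adjusted p 0.0151) and Hes1 had a log2 fold change of 0.26 (0.327). Rbpj itself fell by 0.34 (limma adjusted p 0.0149). These last 3 genes were named after their values were seen. The calls of Nrarp and Rbpj were lost when libraries were scaled to B-lineage genes (adjusted p 0.141 and 0.466) and without WT libraries 1 and 4 (0.0689 and 0.0579), and that of Rbpj without Eμ-Myc library 4 (0.0509). Without WT libraries 1 and 4, Nrarp was -0.46 and Hes1 was -0.0948.

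Most genes of a transitional and immature list, which also holds genes of early B-cell precursors, moved the other way. Of 13 tested genes 8 rose and 2 fell, with a median of 1.58, while 29.0% of all genes were called higher. The 2 that fell were Il7r (-2.43, limma adjusted p 0.00518) and Kit (-0.72, 0.00868). Cd93 did not pass (0.36, limma adjusted p 0.188), and its groups overlapped. Il7r, Kit and Cd93 were named after their values were seen. Sox4, a transcription factor of early B-cell precursors, rose by 2.43 (limma adjusted p 4.79e-06), and Rag1, which recombines the antigen receptor genes, rose by 2.98 (2.85e-05). By contrast, 1 of 11 B-lineage genes rose and 1 fell, with a median of -0.08; these were Pou2af1 (0.75, limma adjusted p 0.00616) and Cd22 (-0.99, 0.00395). Among related genes of the 9, of 17 tested, 9 fell and 1 rose, including the tetraspanin Cd53 (-1.14, limma adjusted p 1.56e-05) and the Ms4a family member Ms4a4c (-1.53, 2.10e-04). That is 10 called of 17, close to the 55.7% of all genes called in either direction, of which 26.7% were called lower and 29.0% higher.

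Germinal centre genes fell in 6 of 7 cases, among them Bcl6, the repressor that directs the germinal centre programme (-2.14, limma adjusted p 2.44e-04). Of 5 B1-cell genes 2 rose and 3 fell, and of 8 plasma-cell genes 2 rose and 3 fell. For these and the following lists, the shares over all genes tested were 26.7% called lower, 29.0% higher and 55.7% in either direction. Markers of T and NK cells moved with the 9 genes too: 12 of 12 T-cell genes and 8 of 8 NK-cell genes fell. Of 15 myeloid and dendritic genes 2 fell, a smaller share than the 26.7% of all genes called lower. Of 7 platelet genes 2 fell, close to that share, and none of 8 erythroid genes passed. Follicular dendritic cells also carry much CD21; of the 7 listed genes of these and stromal cells 2 could be tested and 1 rose (Mfge8), and Cxcl13, a defining gene of these cells, was at most 1.33 in any library. The part of these cells in the lower level of the 9 genes was not tested.

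**Figure D2:**
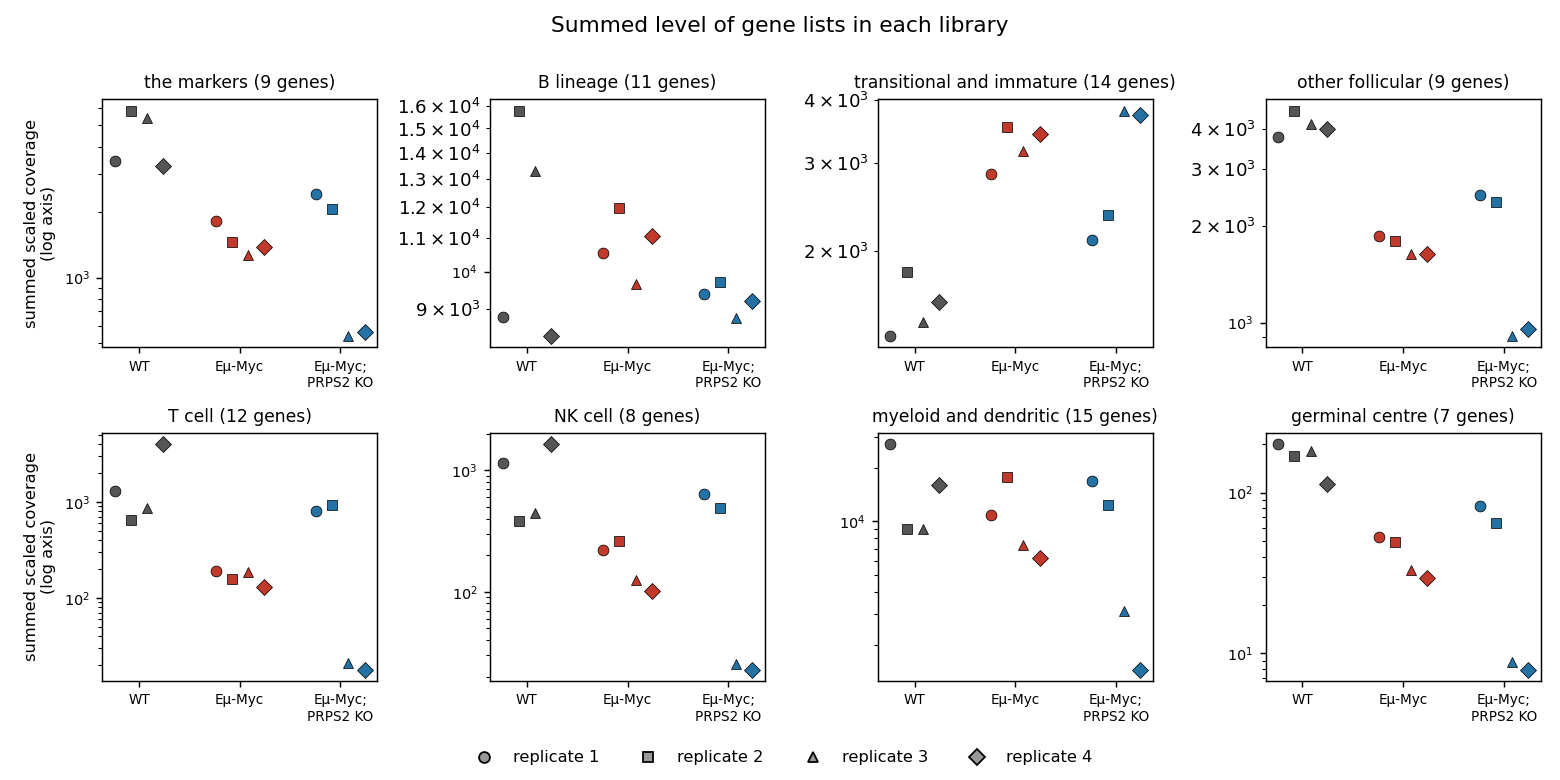
Summed scaled coverage of gene lists in each library, on log axes that differ between panels, with points shaped by replicate and coloured by group. The 9 genes sum to 1265 to 1813 in Eμ-Myc and 3261 to 5856 in WT. The sum of the transitional and immature list runs the other way. Knockout libraries 3 and 4 hold the lowest T-cell, NK-cell and germinal centre sums.

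The knockout group was then set against Eμ-Myc to ask what the loss of PRPS2 adds to the transgene. None of the 9 genes passed limma's test, and none reached an unadjusted p under 0.05. In all, 1 of 12551 genes was called, or 0.00797%, and that gene was Prps2; 0.988% of genes had an unadjusted p under 0.05. The adjusted p was 1.00 for each of the 9. Library quality weights, which give little weight to knockout libraries 1 and 2 (0.0852 and 0.132, against 3.08 and 8.16 for libraries 3 and 4), called all 9 genes lower and 6997 genes in all. With these weights the log2 fold change was -6.47 for Fcer2a and -4.59 for Cr2, against -2.77 and -1.79 without them.

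In 5 of the 9 genes the 4 knockout libraries formed 2 pairs on either side of Eμ-Myc. Fcer2a was 1039 and 842 in knockout libraries 1 and 2, above every Eμ-Myc library, and 3.5 and 2.54 in libraries 3 and 4. Cr2 showed the same split, with 67.9 and 62.4 in the first pair, and 0.106 and 0.318 in the second. In these last libraries the deposited Cr2 coverage was 0.1 and 0.3, close to the smallest step of the files.

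Dtx1 had 72.6, 67.5, 14.7 and 15.9 in knockout libraries 1 to 4, and Notch2 had 61.3, 57.3, 21.1 and 20.1. For these genes too the first pair lay above all Eμ-Myc libraries and the second below them, with a smaller distance than for Cr2 or Fcer2a. Fcrl1, with 391, 309, 55.8 and 59.7, was the other gene with this order.

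Cd9 was 148, 82.8, 17.3 and 15.6, and Cd38 was 94.3, 67.4, 19.1 and 20.0. Cd1d1 was 61.1, 51.0, 26.4 and 26.6. In these genes library 1 was above all Eμ-Myc libraries, library 2 was within their range, and libraries 3 and 4 were below. Ms4a1 had the narrowest spread as a ratio of highest to lowest library (1.36), with 495, 519, 381 and 404, and its first pair lay within the Eμ-Myc range.

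Libraries 3 and 4 were thus both below every Eμ-Myc library for 9 of the 9 genes, an order found in 31.4% of the 12551 genes tested. Libraries 1 and 2 were both above in 5 of the 9 and in 23.7% of all genes, and both orders held in the same 5 genes and in 15.2% of all genes. The SD of log2 values within the knockout group was 4.66 for Fcer2a, the largest of the 12551 genes, and 3.78 for Cr2, at rank 4. For Ms4a1 the SD was 0.22, under the all-gene median of 0.37.

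The log2 fold change against Eμ-Myc was -2.77 for Fcer2a with a 95% interval of -7.41 to 1.87, and -1.79 for Cr2 with an interval of -5.58 to 2.01. The means of scaled coverage ran the other way, at 472 in the knockout group and 411 in Eμ-Myc for Fcer2a, and 32.7 and 24.8 for Cr2. The negative sign thus holds on the log scale, where libraries 3 and 4 lie far down, and not for the plain means. Such intervals hold both large decreases and moderate increases, so these libraries do not set the size or direction of a change. Leaving out single libraries moved Fcer2a between -4.16 (without knockout library 1) and -1.36 (without knockout library 4), and Cr2 between -2.90 (without knockout library 1) and -0.62 (without knockout library 3). For Ms4a1 the interval was narrow, from -0.62 to 0.07 around -0.27. Dtx1 (0.06) and Notch2 (0.09) had values near 0 that are means of libraries on either side. The sign of both turned negative without knockout library 1 (-0.32 for Dtx1, -0.18 for Notch2) or library 2 (-0.28 and -0.15). It also turned for Dtx1 without Eμ-Myc library 3 (-0.09) or 4 (-0.000113), and for Notch2 without Eμ-Myc library 2 (-0.07).

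**Figure D3:**
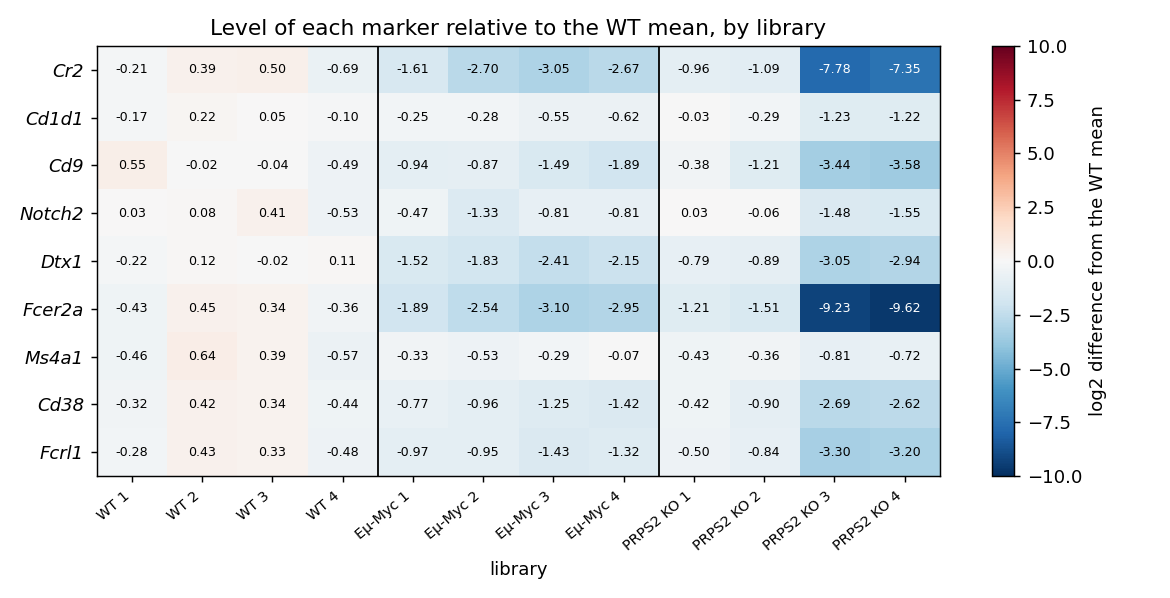
Level of each gene in each library relative to the WT mean, as log2 of scaled coverage with 0.5 added (colour and printed value; negative is lower). Knockout libraries 3 and 4 reach -9.23 and -9.62 for Fcer2a, while libraries 1 and 2 are at -1.21 and -1.51.

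Several gene groups moved with this split of the knockout libraries. The sum of 9 further follicular genes was 2499 and 2372 in libraries 1 and 2 and 908 and 956 in libraries 3 and 4. The transitional and immature sum ran the opposite way, with 2106 and 2359 against 3812 and 3739. Myc itself was 1130.0 and 1731 in the first pair, and 2883 and 3136 in the second. Prps2 did not split in this way, with 18.8, 17.1, 16.3 and 15.5. The B-lineage sum stayed between 8776 and 9707 in the 4 libraries. T-cell, NK-cell and myeloid sums, given above, were all lower in libraries 3 and 4. No label marks these pairs as a batch, and the part of other cell types or of Myc level in the split was not tested.

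Against WT, with which Eμ-Myc was also compared using the same 4 WT libraries, 1 of the 9 genes passed in the knockout group, while 30.7% of 12692 genes were called in either direction and 11.0% were called lower. That gene was Dtx1, which fell by 1.92 on the log2 scale (SE 0.55, limma adjusted p 0.0365). The call was lost without any 1 of the WT libraries (adjusted p from 0.0763 to 0.0864) and without knockout library 3 (0.0924) or 4 (0.0974). It was also lost with scaling to B-lineage genes (0.0559), with the replicate number as a block (0.0554), and without WT libraries 1 and 4 together (0.161). In that last setting the log2 fold change of Dtx1 was -1.97, so its size did not shrink. An unadjusted p under 0.05 was reached by 7 of the 9 genes, as it was by 51.0% of all genes. Of the 9, 4 had every knockout library below every WT library, namely Cr2, Fcer2a, Dtx1 and Fcrl1, against 16.2% of all genes.

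The largest differences from WT were those of Fcer2a (-5.39, SE 2.02, limma adjusted p 0.0690) and Cr2 (-4.30, SE 1.65, adjusted p 0.0730), neither of which passed. Without knockout library 1, 7 of the 9 genes were called, and without library 2, 6 were. With either left out, Fcer2a (-6.79, adjusted p 0.0210; -6.69, 0.0396) and Cr2 (-5.41, 0.0237; -5.37, 0.0402) passed. Without knockout library 3 or 4 the differences shrank, to -4.11 and -3.98 for Fcer2a and to -3.13 and -3.28 for Cr2. Leaving out any other single library left none called. Side by side, the log2 fold changes from WT were, first for Eμ-Myc and then for the knockout group, -1.98 and -1.92 for Dtx1, -0.85 and -0.77 for Notch2, -0.43 and -0.69 for Cd1d1, -1.30 and -2.15 for Cd9, -1.17 and -1.96 for Fcrl1, and -1.10 and -1.66 for Cd38. For Ms4a1 they were -0.30 and -0.58.

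**Figure D4:**
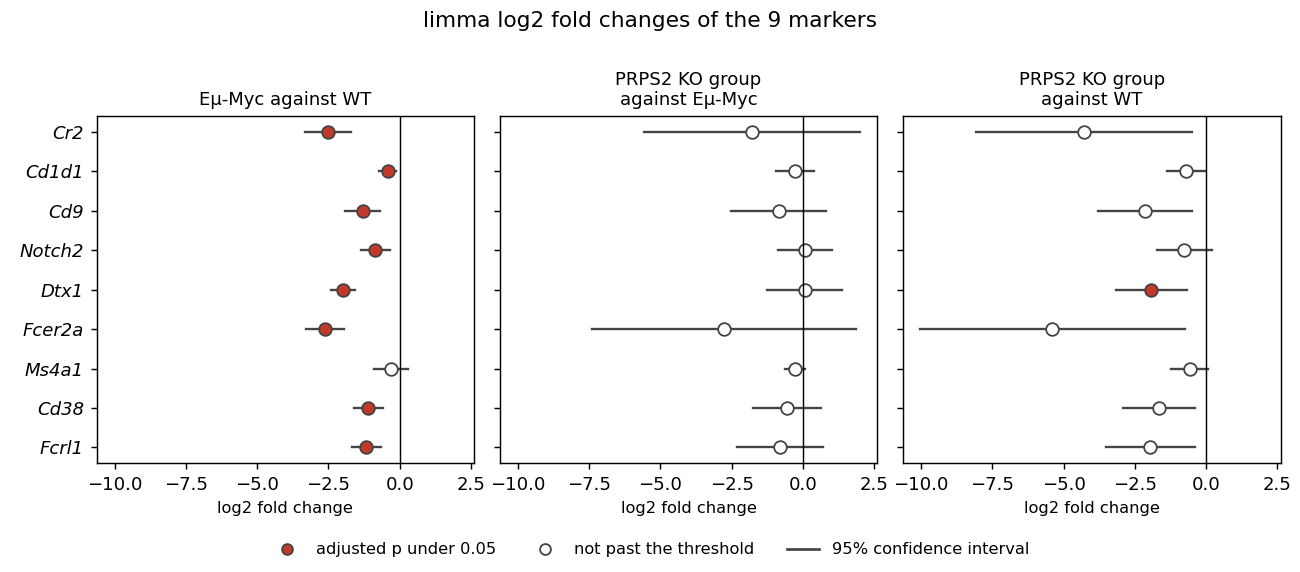
limma log2 fold changes of the 9 genes in 3 comparisons, with 95% confidence intervals; filled points have an adjusted p under 0.05. Of the 9, 8 are filled in Eμ-Myc against WT, none when knockout is set against Eμ-Myc, and Dtx1 alone in the knockout group against WT, where the intervals of Fcer2a and Cr2 are the widest.

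In the other lists, the knockout group had lower levels than WT for 5 of 9 follicular genes, among them Ccr7 (-1.38, limma adjusted p 0.0141) and the BAFF receptor gene Tnfrsf13c (-1.71, 0.0364). Of 10 marginal zone genes 3 fell and 1 rose, the first including S1pr1 (-1.53, limma adjusted p 0.0213) and the last being Mzb1 (1.02, 0.0364). In the Notch pathway 4 of 29 fell and none rose, Lfng (-1.25, limma adjusted p 0.0450) among them, a share close to the 11.0% of all genes called lower. Genes of the transitional and immature list rose in 7 of 13 cases and fell in none, against 19.7% of all genes called higher. Sox4 (2.00, limma adjusted p 0.00814) and Myb (1.59, 0.00926) were among those that rose. Of the germinal centre genes 4 of 7 fell. Of the 7 platelet genes 5 fell, with a median of -2.06, among them Treml1 (-2.34, limma adjusted p 0.0269) and Itga2b (-2.22, 0.0331); platelets express Cd9, and their part in its level was not tested. None of the T-cell, NK-cell and myeloid genes passed, though their median log2 fold changes were -3.21, -2.52 and -1.05, and all 12 T-cell and all 8 NK-cell genes had negative values. Of 11 B-lineage genes 1 fell and none rose, of 5 B1-cell genes 2 rose and none fell, and of 8 plasma-cell genes 1 rose and 1 fell. None of 8 erythroid genes passed, and 2 of 17 related genes fell. Of the follicular dendritic and stromal genes the 2 that could be tested both passed, Clu falling by 2.13 (limma adjusted p 0.0284) and Mfge8 rising by 0.85 (0.0355). Without WT libraries 1 and 4 only 4 genes were called over the whole table. Each list gene named for the knockout group against WT lost its call (adjusted p from 0.0672 for Sox4, Myb and Clu to 0.216 for Lfng). Their log2 fold changes kept their signs in that setting. Those of Mzb1 (0.59) and Lfng (-1.08) shrank, and the others were as large or larger, such as Sox4 (2.08) and Treml1 (-2.98).

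Cr2 and Fcer2a kept nearly the same proportion in most libraries although both varied widely. The ratio of Cr2 to Fcer2a was 0.0442 to 0.0642 in WT, 0.0489 to 0.0668 in Eμ-Myc, and 0.0653 and 0.0741 in knockout libraries 1 and 2. In knockout libraries 3 and 4 it was 0.0303 and 0.125, where Cr2 was too low for a firm ratio. By contrast, the ratio of Cd1d1 to Fcer2a was 0.0214 to 0.0312 in WT, 0.0814 to 0.153 in Eμ-Myc, 0.0588 and 0.0606 in knockout libraries 1 and 2, and 7.55 and 10.5 in libraries 3 and 4. Genes of 1 library share its depth and cell composition, and these ratios are a description.

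**Figure D5:**
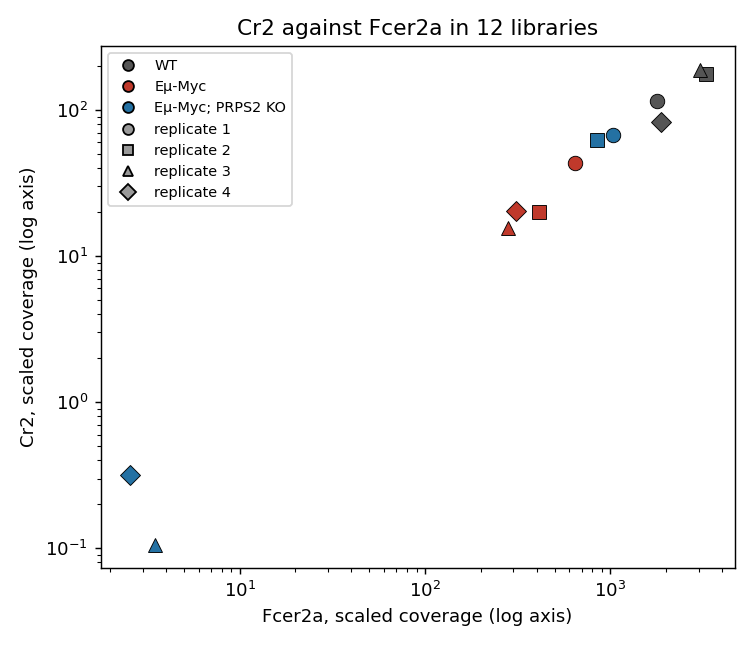
Scaled coverage of Cr2 against Fcer2a in 12 libraries, on log axes, coloured by group and shaped by replicate. The libraries other than knockout 3 and 4 lie along a common line with a ratio between 0.0442 and 0.0741, and knockout libraries 3 and 4 lie near the bottom left corner.

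Among the 9 genes, the most similar pair over the 12 libraries was Cd38 and Fcrl1, whose centred log2 profiles differed by a root mean square of 0.23, and the least similar was Fcer2a and Ms4a1, at 2.99. Among 9589 genes with a mean of at least 8, the profile nearest to that of Fcer2a was Ccr6, a chemokine receptor of mature B cells (0.52), followed by Cr2 (0.70), where the median gene was 3.24 away. Nearest to Cr2 were Ltb, which encodes lymphotoxin beta (0.48), and Icosl (0.50), with a median of 2.64. For Dtx1 they were Carns1 (0.16), an enzyme of carnosine synthesis, and Maml2 (0.20), with a median of 1.17. The libraries share their cell composition in these profiles, so the distances are a description.

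By the annotation on GRCm38, Cr2 spans chr1:195136811-195176716 and Fcer2a chr8:3681737-3694175, and neither overlaps another gene. Dtx1 and Cd1d1 overlap none either. Genes on the opposite strand overlap Cd9 (2), Ms4a1 (1) and Cd38 (1). On the same strand, 1 gene lies over Cd38 and 2 over Notch2, with 3.76% of the 50-base windows of Notch2 shared with 1 of them. Whether strand was used when coverage was computed is not given in the sources used here, so values of these genes may hold reads of their neighbours.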

How the data were processed

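The authors deposited 1 file per library with a coverage signal for each of 24982 gene symbols, written with 1 decimal. Per the submitters' processing notes, mm10, DESeq and R 4.3.3 were used, with no role named; how coverage was computed is not given in the sources used here. Between 91.2% and 92.1% of values above 0 were not whole numbers, so count models were not used, and the read depth is unknown. Libraries were grouped by genotype in the labels. Coverage was scaled by trimmed means of log ratios (30% of ratios and 5% of means trimmed at each end, genes at 1 or more). A gene entered the test if 4 or more of the 8 libraries held a scaled coverage of 1 or more. The test was limma 3.58.1 in R 4.3.3 (trended, robust, two-sided) on log2(scaled coverage + 0.5); Benjamini-Hochberg adjustment ran over all genes tested, and an adjusted p under 0.05 was called. Fold changes are on that scale and understate those of low genes. The method was tested on simulated data.

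The 9 genes and the other lists were chosen with earlier results of these data known. Of each other list, the 2 called genes with the smallest p and a mean of at least 8 were to be named; where fewer are named, the list is given by counts. Same-numbered Eμ-Myc and knockout libraries deviated together, with r over 0.1 in every pair (0.657, 0.192, 0.253 and 0.607). This comes from the values alone, and they do not single out the number. Knockout library 2 had r of 0.605 with Eμ-Myc library 1, and knockout library 3 had 0.601 with Eμ-Myc library 4. In the other comparisons r was not over 0.1 in every pair. For same-numbered libraries 1 to 4 it was 0.229, -0.0977, 0.264 and 0.135 for Eμ-Myc and WT. For the knockout group and WT it was 0.397, -0.422, 0.137 and -0.0630. The blocked alternative, which treats libraries of the same number as pairs, was run in each comparison regardless of r. The alternatives were other scalings, pseudocounts and filters, all libraries in one model, a block, quality weights and leaving out libraries. Sequences are from RefSeq and positions from GENCODE, both on GRCm38. Tables and figures used Python 3.11.15, numpy 2.4.6 and matplotlib 3.10.9.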

Additional observations from a re-analysis of the deposited data

How the results depend on the processing

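Against WT, all 9 genes were lower in Eμ-Myc in each alternative run. The count of 8 called genes became 1 with all 12 libraries in one model, whose error takes in the knockout libraries. It became 9 with quality weights or without WT libraries 1 and 4, 7 with B-lineage scaling, and 7 to 8 when single libraries were left out. Over all genes, 7088 calls became 3478 when libraries were scaled to B-lineage genes. Total coverage scaling moved the median gene by -0.14, and the share of calls that were higher was 52.1%, 42.0% with total coverage and 62.1% with B-lineage scaling. Hes1 turned to -0.0633 with quality weights and -0.0948 without WT libraries 1 and 4. In the knockout group against Eμ-Myc, quality weights gave 9 called genes instead of 0, 6997 calls over all genes instead of 1, and turned Dtx1 to -0.73 and Notch2 to -0.72. Leaving out single libraries gave values from -0.32 to 0.44 for Dtx1, -0.18 to 0.35 for Notch2 and -0.0893 to 0.40 for Myc, which changed sign, and -2.90 to -0.62 for Cr2 and -4.16 to -1.36 for Fcer2a, whose plain means were higher in the knockout group. In the knockout group against WT, the 1 called gene became 2 with median-of-ratios scaling, a pseudocount of 2 or a mean of at least 8, 0 with B-lineage scaling or without WT libraries 1 and 4, 7 with all 12 libraries, 9 with quality weights, and 0 to 7 without single libraries. Its 3900 calls over all genes became 1639 with B-lineage scaling (88.7% higher, against 64.3%), 6095 with all 12 libraries, 10607 with quality weights, 4 without WT libraries 1 and 4, and 774 to 6747 without single libraries. With the replicate number as a block they were 1932, and the 1 called gene was Cd9 (adjusted p 0.0470) instead of Dtx1 (0.0554); the block changed neither count for knockout against Eμ-Myc, and left 8 called genes in Eμ-Myc against WT. The causes were not tested. Depth is unknown, so the counting error of Cr2, below 1 in knockout libraries 3 and 4, cannot be estimated.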
